A study of Drosophila melanogaster with 13 samples.

Results

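The vacuolar H+-ATPase (V-ATPase) genes of Drosophila melanogaster were followed across whole testes of 5 genotypes. Members were all genes whose probe sets carry exactly 1 platform gene symbol beginning with Vha. The rule found 32 probe sets for 31 genes, out of 11982 genes so named on the arrays. Each gene was read from its brightest probe set, judged by the mean of all 13 arrays. A gene was tested when its log2 value exceeded 4, a level near the background of these arrays, in at least 3 arrays. Of the 31 members 30 met this. Vha100-4 lay at the arrays' floor of 2.1 in all 13 arrays and was not tested.

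The V-ATPase is a rotary proton pump that acidifies lysosomes, endosomes and secretory vesicles. Its cytosolic V1 sector (subunits A to H) hydrolyses ATP and turns a central shaft, and its membrane V0 sector (a, c, c″, d and e) carries protons through a proteolipid ring past subunit a. Flies hold several copies of many subunit genes. Some copies are used in most tissues and others are known for expression in testis, where acidic vesicles such as the acrosome of the sperm form.

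The members were sorted by general knowledge of the fly into 8 testis copies, 15 general copies and 8 other copies, the last being genes for which neither use was taken as known. This sorting was made with earlier results of these data known. Counts by class therefore describe these arrays and do not test the sorting. Testis copies were Vha68-3, Vha36-2, Vha36-3, Vha14-2, Vha100-3, Vha16-5, VhaPPA1-2 and VhaAC39-2. The arrays hold testes alone, so use of a copy in other tissues was not measured. No probe set was named for Vha68-1 or Vha68-2, the general copies of subunit A, which were not analysed here. The members lie on all major arms, with 12 on 3R, 8 on 2R, 5 on 3L, 4 on 2L and 2 on X.

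Testes were dissected without seminal vesicles or accessory glands from flies aged 0 to 1 day that were kept at 25 °C. The strain called WT carries red[1] and e[1] and had 3 arrays. The genotype aly[2]/aly[5p] removes always early, part of the testis-specific meiotic arrest complex, and sa[1]/sa[2] affects spermatocyte arrest, a testis-specific TBP-associated factor, each with 3 arrays. The gene magellan (magn) is the polyubiquitin gene Ubi-p63E. It was represented by magn[12c]/magn[23b] and by magn[12c]/magn[12c];pSC2, with 2 arrays each, below called the 23b and the pSC2 combination. The labels do not say what pSC2 is. A value for magn as such is the mean of both combinations with equal weight. The mutants halt or disturb male meiosis and spermatid formation to different degrees, and the germ cell stages present therefore differ between genotypes. In RNA from a whole organ, fewer cells of a type and less RNA per cell cannot be told apart, and neither can other differences between the strains. The replicates are called biological, but nothing says whether they came from separate crosses, so p-values measure the spread between these samples.

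In every array Ubi-p63E read 3.59 to 5.47 in magn against 13.57 to 14.90 elsewhere, and sa read 5.84 to 6.25 in sa against 10.80 to 13.79 elsewhere. The aly transcript read 7.23 to 7.34 in aly and 5.95 to 6.28 in WT, so it does not check that label. Markers of other cells differed between arrays. The summed signal of 11 accessory gland genes was 17.33 (log2) in WT replicate 2 against 15.06 and 14.25 in the other WT arrays. The aly arrays read 13.23 to 13.76 and the sa arrays 14.10 to 15.35. The 23b arrays read 13.75 to 13.89 and the pSC2 arrays 16.67 to 16.69. None of these 11 genes was at or below 4 in all arrays of a group, and their part in the results was not tested. Without WT replicate 2 the numbers of testis copies called lower (8, 6 and 5 in aly, sa and magn) and of general copies called higher (5, 9 and 2) were the same as with it. The members called were not all the same. Over all comparisons 3 calls of members were lost (Vha100-2 in magn, VhaAC39-2 in sa and Vha16-1 in aly) and 1 was gained.

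**Figure D1:**
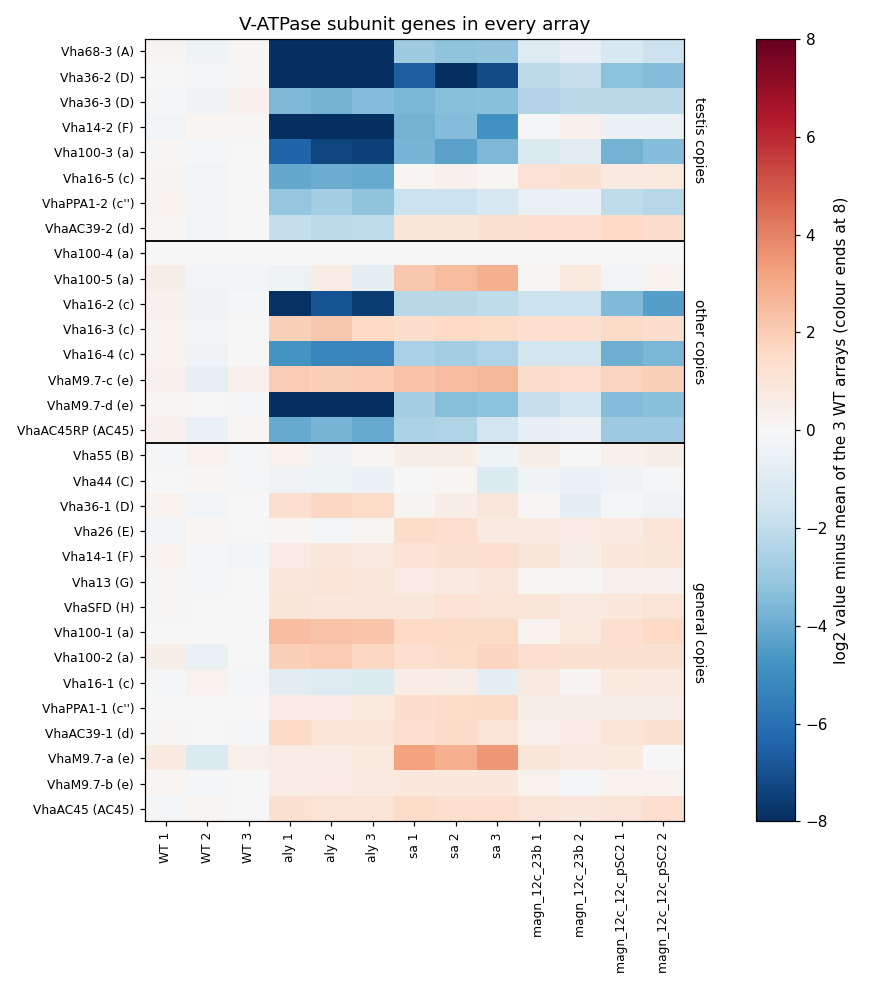
Log2 value of each of the 31 V-ATPase genes (rows, with the subunit in parentheses) in each of the 13 arrays (columns), as the difference from that gene's mean over the 3 WT arrays. Blue marks lower and red higher values, the colour ends at a difference of 8, and all 8 testis copies are blue in the 3 aly arrays.

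In the V1 sector all 4 testis copies fell in aly and in sa. Vha68-3, the testis copy of the ATP-hydrolysing subunit A, read 14.09, 13.54 and 13.98 in WT. It read 3.05, 3.02 and 3.41 in aly, 11.01, 10.62 and 10.72 in sa, 12.83 and 13.21 in the 23b and 12.58 and 12.13 in the pSC2 combination. All 10 mutant arrays were below every WT array, with aly at background, sa next and magn nearest to WT. Vha68-3 was at least 936-fold lower in aly (adjusted p = 1.34e-14, limma), and its log2 change was -3.09 (SE 0.20) in sa and -1.18 (SE 0.18) in magn, with adjusted p of 1.16e-08 and 8.5e-05.

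Subunit D forms the central shaft that V1 turns, and it has a general copy and a pair of testis copies. Vha36-2 read 12.45, 12.33 and 12.52 in WT and 2.45, 2.63 and 2.71 in aly. In sa it read 5.84, 3.73 and 5.27, in the 23b combination 10.36 and 10.57, and in the pSC2 combination 9.17 and 8.97. Its arrays were therefore apart between WT and each mutant, at background in aly and close to it in sa. It was at least 346-fold lower in aly, and its log2 change was -7.49 in sa (SE 0.40; -7.40 when readings below 4 were set to 4) and -2.67 in magn (SE 0.37), with adjusted p from 3.53e-11 to 3.19e-05 (limma).

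Vha36-3, the other testis copy of subunit D, had a different profile. It read 7.78, 7.60 and 8.18 in WT, 4.29, 4.10 and 4.40 in aly and 4.19, 4.42 and 4.51 in sa. In the 23b combination it read 5.53 and 5.69 and in the pSC2 combination 5.67 and 5.68. It fell in all 3 mutants, with log2 changes of -3.59 in aly, -3.48 in sa and -2.21 in magn. Between aly and sa no difference beyond their spread was seen (log2 change -0.11, SE 0.23, adjusted p = 0.7, limma). Both groups read close to 4, near background, where a difference between them could be hidden.

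Vha14-2, the testis copy of rotor subunit F, fell in aly and sa and was not called in magn. It read 10.82, 11.16 and 11.10 in WT, 2.1, 2.52 and 2.1 in aly and 7.22, 7.54 and 6.20 in sa. In the 23b combination it read 10.88 and 11.40, which overlapped with WT, and in the pSC2 combination 10.54 and 10.52. It was at least 130-fold lower in aly and changed by -4.04 in sa (SE 0.31, adjusted p = 5.48e-08, limma). In magn the log2 change was -0.19 (SE 0.29, adjusted p = 0.577), or -1.14 and called lower with each array centred on its ribosomal protein genes.

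In the membrane sector, the testis copy of subunit a, which holds the paths by which protons enter and leave the ring, was Vha100-3. It read 12.06, 11.86 and 12.00 in WT, 5.57, 4.64 and 4.52 in aly and 8.27, 7.72 and 8.41 in sa. In the 23b combination it read 10.84 and 11.16 and in the pSC2 combination 8.20 and 8.51, so that the latter lay among the sa arrays. The log2 change from WT was -7.06 in aly (SE 0.27), -3.84 in sa (SE 0.27) and -2.30 in magn (SE 0.26), with adjusted p of at most 4.45e-06 (limma).

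VhaPPA1-2, the testis copy of the ring subunit c″, fell in each mutant by less. It read 11.52, 11.04 and 11.22 in WT, 8.15, 8.48 and 8.07 in aly, and 9.54, 9.54 and 9.99 in sa. In magn it read 10.66 and 10.77 in the 23b and 9.24 and 9.0 in the pSC2 combination. The mutant arrays were all below WT, and the log2 change was -3.03 in aly (SE 0.19), -1.57 in sa (SE 0.19) and -1.35 in magn (SE 0.17), with adjusted p of at most 1.57e-05 (limma).

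A pair of testis copies was called lower in aly and not in sa or magn. Vha16-5, a copy of the proteolipid c that makes up most of the ring, read 10.48, 10.01 and 10.26 in WT and 6.17, 6.30 and 6.24 in aly. It read 10.43, 10.57 and 10.34 in sa, 11.41 and 11.45 in the 23b and 10.98 and 11.04 in the pSC2 combination. Its log2 change was -4.01 in aly (SE 0.15, adjusted p = 1.52e-11, limma), 0.20 in sa (SE 0.15, adjusted p = 0.243) and 0.97 in magn (SE 0.14), under the 2-fold minimum. Its direct difference, aly minus sa, was -4.21. After centring each array on ribosomal protein genes its value in sa was -1.21 and called lower.

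VhaAC39-2, the testis copy of subunit d, which couples the shaft to the ring, read 10.73, 10.36 and 10.62 in WT and 8.69, 8.45 and 8.55 in aly. It read 11.56, 11.54 and 11.80 in sa, 11.83 and 11.91 in the 23b and 12.18 and 11.96 in the pSC2 combination. The aly arrays were all below WT and the other 7 mutant arrays all above it. The log2 change was -2.01 in aly (SE 0.14, adjusted p = 1.05e-08, limma), 1.06 in sa (SE 0.14) and 1.40 in magn (SE 0.13). The call in sa ended without WT replicate 2 (0.96) and without sa replicate 3 (0.98), and after centring on ribosomal protein genes the value was -0.34 in sa and 0.45, not called, in magn. The direct comparisons with aly, which share no WT array, gave -3.07 for aly minus sa and 3.41 for magn minus aly, with adjusted p of 2.57e-10 and 2.27e-11 (limma).

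**Figure D2:**
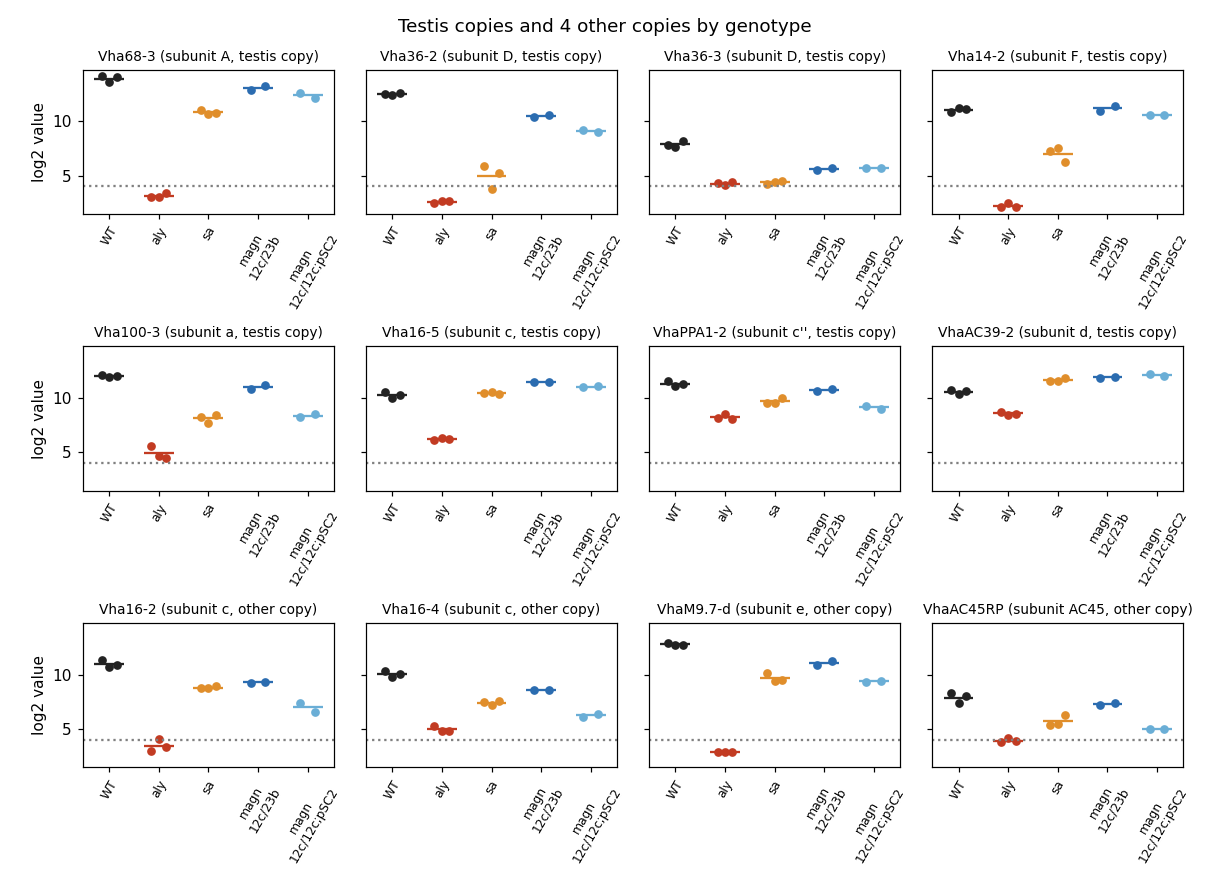
Log2 value per array (points) and group mean (lines) of the 8 testis copies and of 4 other copies that were lower in all 3 mutants, with a dotted line at 4. Vha68-3, Vha36-2, Vha14-2 and VhaM9.7-d lie under that line in every aly array, while Vha16-5 and VhaAC39-2 are below WT in aly only.

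Several genes outside the testis class behaved as its members did. VhaM9.7-d, a copy of the small membrane subunit e, read 12.89, 12.73 and 12.67 in WT and 2.95, 2.96 and 2.87 in aly. In sa it read 10.12, 9.38 and 9.47, in the 23b combination 10.91 and 11.24, and in the pSC2 combination 9.32 and 9.43. It was at least 435-fold lower in aly (adjusted p = 3.28e-14, limma) and changed by -3.11 in sa and by -2.54 in magn. The proteolipid copies Vha16-2 and Vha16-4 were lower in all 10 mutant arrays, with log2 changes of -7.47 and -5.09 in aly, -2.17 and -2.64 in sa, and -2.83 and -2.62 in magn. Setting readings below 4 to 4 made the change of Vha16-2 in aly -6.95. VhaAC45RP, related to the accessory subunit AC45, read 8.27, 7.38 and 8.05 in WT. It changed by -3.93 in aly (-3.84 with readings below 4 set to 4), by -2.17 in sa and by -1.73 in magn, where replicate 2 of the 23b combination at 7.44 overlapped with WT.

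Other copies went the opposite way. Vha16-3 read 10.95, 10.45 and 10.62 in WT and was higher in all 10 mutant arrays, by 1.91 in aly, 1.5 in sa and 1.38 in magn. It lies next to Vha16-2 on arm 3L in the RefSeq gene table of assembly Release 6, with no protein-coding gene between them, and the pair moved in opposite directions in each mutant. VhaM9.7-c rose by 1.97, 2.46 and 1.59. After centring on ribosomal protein genes the rises of Vha16-3 were 0.46, 0.09 and 0.43 and none was called, and of those of VhaM9.7-c only the one in sa was. Vha100-5, a dim copy of subunit a, rose in sa only among the 3 comparisons with WT (from 4.26, 3.52 and 3.53 to 5.95, 6.28 and 6.61, adjusted p = 3.42e-05, limma). Its level in sa was also higher than in aly (aly minus sa -2.70) and in magn (magn minus sa -2.28).

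Changes of the general copies ran from -1.0 to 3.17 over the 3 comparisons with WT. Among the V1 genes, Vha55 (subunit B, which binds nucleotide beside A) and Vha44 (subunit C, which controls assembly of V1 with V0) were not called in any comparison with WT, with log2 changes from -0.40 to 0.34. When ribosomal protein genes set the centre of each array, Vha44 was called lower in aly (-1.85), sa (-1.69) and magn (-1.25). On that centre Vha55 was called lower in aly and sa. Vha36-1, the general shaft subunit, read 10.82, 10.34 and 10.50 in WT and 11.82, 12.20 and 12.00 in aly. It rose by 1.45 in aly (SE 0.22, adjusted p = 3.6e-05, limma) and changed by 0.55 in sa and -0.25 in magn, neither called. In aly that rise was 0.00 after centring on ribosomal protein genes, and in magn Vha36-1 was then called lower. Vha26 and Vha14-1 (stalk subunit E and rotor subunit F) rose in sa, by 1.19 and 1.22, and VhaSFD (the regulatory subunit H) by 1.03, which ended without sa replicate 2 (0.97). Vha13 (stalk subunit G) changed by 0.96, 0.76 and 0.24, under the 2-fold minimum.

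Among the V0 genes, Vha100-1, the copy of subunit a known from neurons, was sorted with the general copies here. It read 9.52, 9.56 and 9.48 in WT and 11.97, 11.83 and 11.75 in aly. It rose by 2.33 in aly (SE 0.14, adjusted p = 2.55e-09, limma) and by 1.54 in sa, with 0.99 in magn. Vha100-2 rose by 1.85, 1.49 and 1.25, and its value in magn was 0.98 and not called without WT replicate 2. VhaAC39-1, the general subunit d, rose by 1.22 in aly and 1.27 in sa, and VhaPPA1-1, the general c″, by 1.47 in sa. VhaM9.7-a, a copy of subunit e, rose in sa (9.06, 8.65 and 9.31 against 6.58, 4.66 and 6.26 in WT, log2 change 3.17, SE 0.42, adjusted p = 1.15e-05, limma), while VhaM9.7-b was not called in any comparison with WT. The accessory subunit gene VhaAC45 rose by 1.15, 1.36 and 1.07, and the call in magn ended without WT replicate 1 (0.98) and without replicate 2 of the pSC2 combination (0.99).

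The proteolipid gene Vha16-1 had a pair of probe sets that disagreed. The brighter one read 12.23, 12.69 and 12.22 in WT and 11.51, 11.36 and 11.27 in aly, a log2 change of -1.0 (SE 0.29, adjusted p = 0.00643, limma). The second read 10.70, 10.84 and 10.59 in WT and 11.86, 11.79 and 11.68 in aly, a change of 1.07 (adjusted p = 4.04e-05), an alternative chosen after seeing the data. The direction for this gene in aly therefore depends on the probe set, and the call of the brighter one also ended without WT replicate 2 (-0.85), aly replicate 2 (-0.99) or aly replicate 3 (-0.95).

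A call needed a change of 2-fold or more and an adjusted p (limma) below 0.05. By class, the comparison with WT was most uniform in aly. All 8 testis copies were called lower there, as were 24.8% of all 8719 tested genes, with a median log2 change of -5.54 against 0.77 over all genes. In sa 6 of 8 fell and 1 rose (median -3.28 against 0.66), with 21.6% of all genes lower and 40.9% higher. In magn 5 of 8 fell and 1 rose (median -1.26 against 0.38), with 14.6% lower and 29.3% higher. Of the 7 tested other copies 4 fell in each mutant, while 2 rose in aly, 3 in sa and 2 in magn. Of the 15 general copies 5 rose and 1 fell in aly, against 45.6% of all genes higher, 9 rose in sa and 2 in magn. The general copies' median change was 0.77 in aly, 1.19 in sa and 0.61 in magn, and 8, 11 and 10 of the 15 lay above the median of all genes. Over the 10 mutant arrays together, 5 testis, 3 other and no general copies were below every WT array, where 14.5% of all genes were. No testis, 2 other and 8 general copies were above every WT array, where 30.6% of all genes were.

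Ribosomal protein genes rose in the mutants too, and centring each array on 41 of them moved every change down by 1.45 in aly, 1.41 in sa and 0.95 in magn. Of all calls, 30.8%, 19.3% and 19.6% were then higher, in place of 64.7%, 65.4% and 66.8%. The testis copies called lower were then 8, 7 and 6 of 8. The general copies called higher were 0, 1 and 0 of 15, and those called lower 4, 3 and 2. Over all genes 19.5%, 10.4% and 8.5% were then called higher and 43.8%, 43.8% and 34.8% lower. The direction of the general copies therefore rests on the scale on which arrays are compared. Because this centring lowers every change, it does not test the falls of the testis copies.

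**Figure D3:**
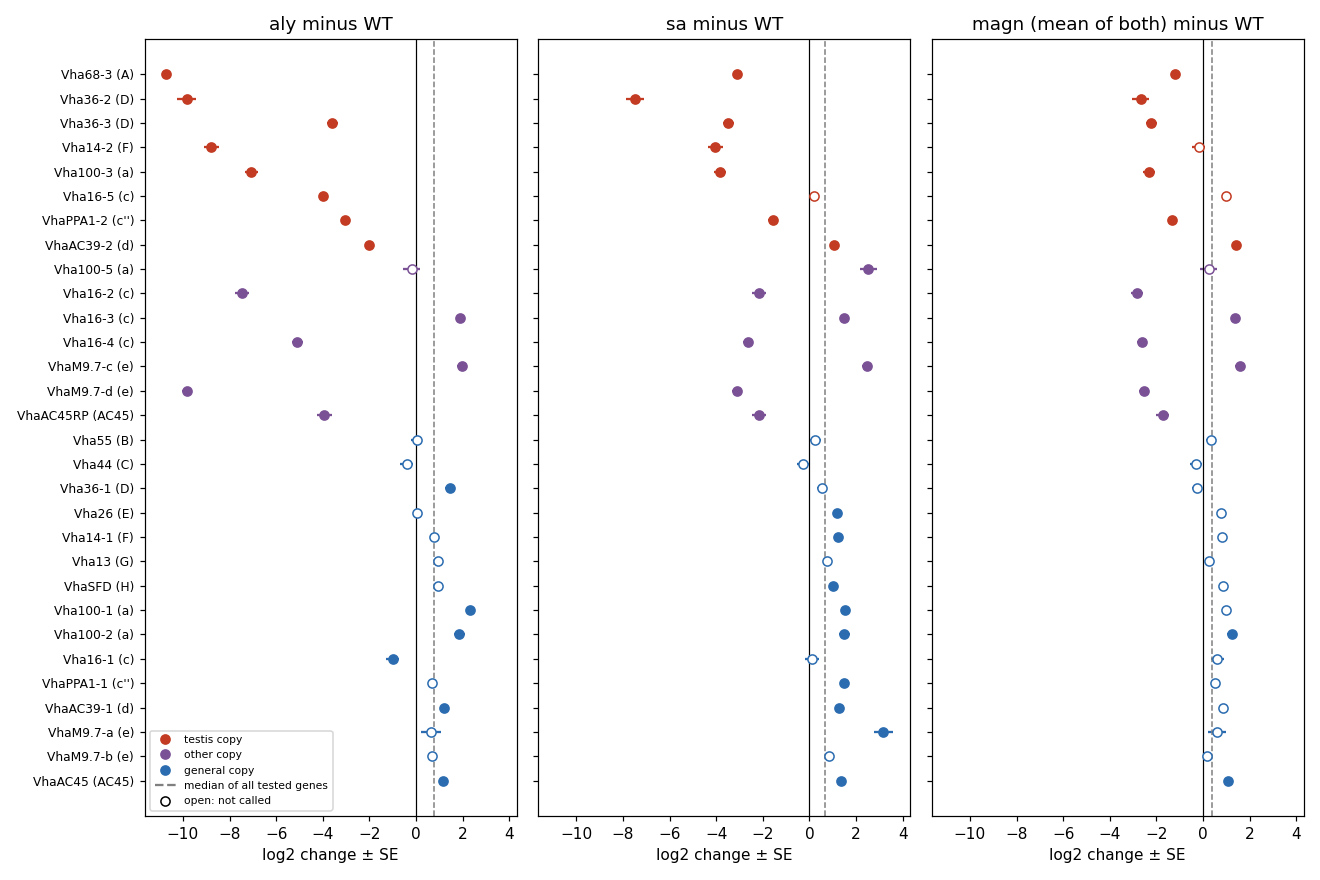
Log2 change from WT (points, with SE from limma as bars) of the 30 tested V-ATPase genes in aly, sa and magn on a shared axis, coloured by class, with open points for genes not called. The dashed line is the median of all tested genes, at 0.77, 0.66 and 0.38, and 8, 11 and 10 of the 15 general copies lie above it. Testis copies extend to a fitted change of -10.71 in aly, where readings at background make the size depend on the floor.

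Testis and general copies of the same subunit were then compared within each array, since the difference of their log2 values is free of any scaling of a whole array. Only its change between groups can be read, because signals of different probe sets are not on a common scale. Of 10 pairs fixed, 8 had probe sets for both genes. The 3 WT arrays were set against the 10 mutant arrays by a two-sided exact permutation test over 286 choices, whose smallest possible p is 0.0035. This test counts each mutant array as a separate draw, although the arrays are replicates of a few genotypes whose values differ. Its p therefore does not measure the spread between genotypes. Between WT and a single group of 3 arrays the smallest possible p would be 0.1, so those comparisons are given as values.

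Among the 8 pairs, the mean shift was widest for a copy of the shaft subunit. Relative to Vha36-1, Vha36-2 changed from WT by -1.66 in the 23b and -3.18 in the pSC2 combination. Its aly arrays and 1 sa array were at background, so only bounds hold there: with readings below 4 set to 4 the change was -9.89 in aly and -7.95 in sa (-11.29 and -8.04 as read). It was below every WT array in 10 of 10 mutant arrays, with a mean change of -6.32 at that bound (exact permutation p = 0.00699) and -6.77 as read (exact permutation p = 0.0175). Vha36-3 relative to Vha36-1 changed by -5.05 in aly, -4.03 in sa, -1.93 in the 23b and -1.99 in the pSC2 combination, also in 10 of 10 arrays (-3.51, exact permutation p = 0.0035). For the rotor subunit, Vha14-2 relative to Vha14-1 changed by -5.26 in sa, -0.59 in the 23b and -1.43 in the pSC2 combination. In aly Vha14-2 was at background, and the bound with readings below 4 set to 4 was -7.79 (-9.55 as read). Of 10 mutant arrays 9 were below WT, with a mean change of -4.32 at the bound and -4.84 as read (exact permutation p = 0.042 for both). That p rose to 0.0591 with any single aly array left out and to at most 0.0758 with a single WT array left out.

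In the membrane sector, Vha100-3 changed, in the same order of groups, by -9.39, -5.39, -1.49 and -5.09 relative to Vha100-1 and by -8.91, -5.33, -2.26 and -4.84 relative to Vha100-2, each in 10 of 10 arrays (exact permutation p = 0.00699 for both). VhaPPA1-2 relative to VhaPPA1-1 changed by -3.73, -3.05, -1.07 and -2.68, in 10 of 10 arrays (-2.78, exact permutation p = 0.0035). The remaining pairs shifted in aly without a uniform shift over the mutants. VhaAC39-2 relative to VhaAC39-1 changed by -3.23 in aly, -0.21 in sa, and 0.77 and 0.36 in the magn combinations (exact permutation p = 0.479), and Vha16-5 relative to Vha16-1 by -3.01, 0.09, 0.71 and 0.01 (exact permutation p = 0.493). The aly arrays were below all WT arrays for all 8 pairs, and the sa arrays overlapped with WT for these last 2. The Vha16-5 pair used only the brighter probe set of Vha16-1. The second had a mean of 10.71 in WT, 11.78 in aly and 11.44 in sa, with every sa reading above every WT reading. The values of this pair and its overlap in sa therefore depend on the probe set.

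**Figure D4:**
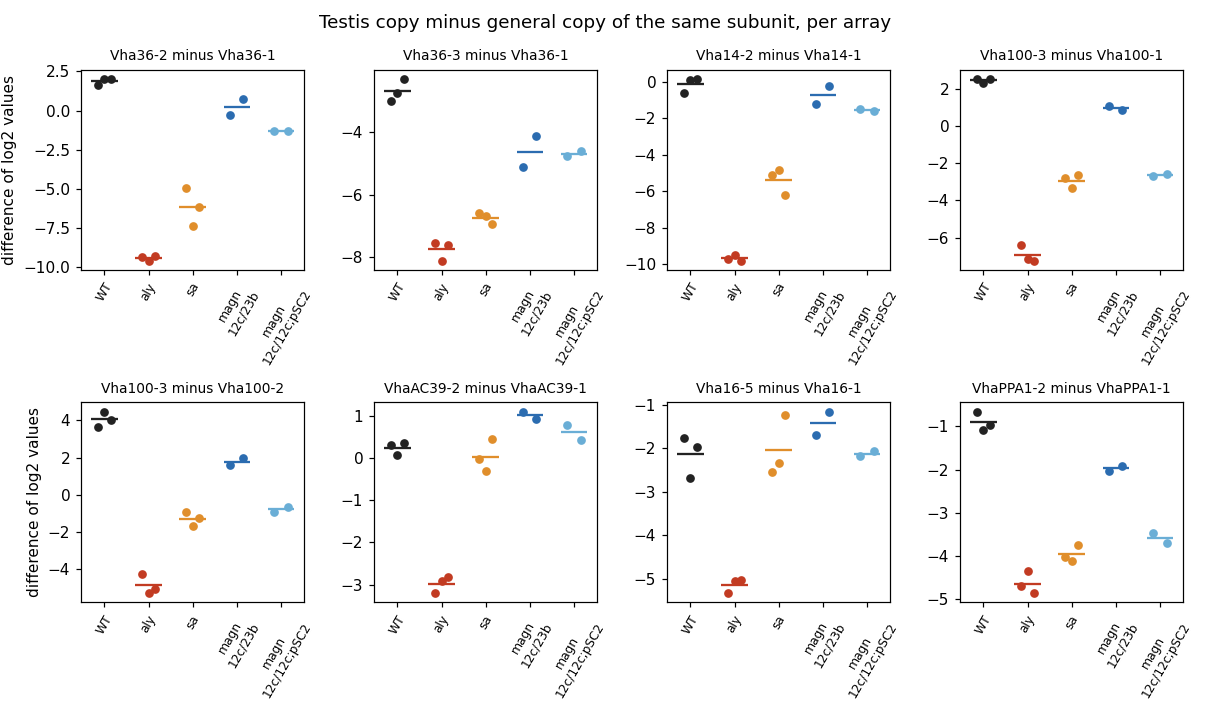
Difference of log2 values between the testis copy and the general copy of the same subunit in each array (points) with group means (lines), for 8 pairs, each panel on its own axis. Heights can be compared between groups within a panel but not between panels, and aly points of Vha36-2 and Vha14-2 rest on readings at background. All aly arrays lie below the WT arrays in every panel.

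The mutants were compared directly, because comparisons with WT share its 3 arrays. Between aly and sa, 15 of 30 members were called and all 15 were lower in aly, where 40.0% of all genes were called, 21.2% lower and 18.8% higher. These were 7 of 8 testis copies, 5 other copies and the general copies Vha26, Vha16-1 and VhaM9.7-a. For Vha16-1 the brighter probe set gave -1.11 and the second 0.34. Vha68-3 was at least 110-fold and VhaM9.7-d at least 50.5-fold lower in aly than in sa, Vha14-2 at least 7.94-fold and Vha36-2 at least 1.93-fold. Vha16-5 differed by -4.21 and VhaAC39-2 by -3.07, with adjusted p of 2.05e-11 and 2.57e-10 (limma). The call of VhaAC45RP (-1.76) ended after quantile normalization (-0.59), and that of Vha26 (-1.14) without sa replicate 1 (-1.0 after rounding).

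Between magn and aly, all 8 testis copies were higher in magn, as were Vha16-2, Vha16-4, VhaM9.7-d, VhaAC45RP and the brighter probe set of Vha16-1 (1.61, with -0.62 from its second probe set), while 26.2% of all genes were called higher and 33.4% lower. Vha68-3 was at least 413-fold, Vha14-2 at least 114-fold and Vha36-2 at least 54.5-fold higher in magn. Vha36-1 and Vha100-1 were lower in magn, with log2 changes of -1.70 and -1.34. The call of Vha36-3 (1.38) ended after quantile normalization (0.06), and the cause was not tested.

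Between magn and sa, 5 members were called higher and 2 lower, where 19.1% and 19.4% of all genes were. Those higher in magn were the testis copies Vha36-2 (4.82), Vha14-2 (3.85), Vha68-3 (1.91), Vha100-3 (1.54) and Vha36-3 (1.27), with adjusted p of at most 0.000194 (limma). For Vha100-3 the arrays overlapped, since the pSC2 combination was at the sa level. Those lower were VhaM9.7-a (-2.58) and Vha100-5 (-2.28), both of which were among the 13 members that rose in sa against WT. Vha16-4 differed by 0.02 (SE 0.21) and VhaPPA1-2 by 0.23 (SE 0.17), neither called.

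The magn combinations differed in several of these genes. Vha100-3, Vha16-2, Vha16-4, VhaPPA1-2, VhaM9.7-d and VhaAC45RP were all higher in the 23b than in the pSC2 combination, and no member was called lower, against 7.94% of all genes called higher and 2.14% lower, 10.1% in all. Vha16-4 read 8.61 and 8.62 in the 23b and 6.14 and 6.41 in the pSC2 combination, and VhaAC45RP read 7.25 and 7.44 against 5.00 and 4.99. Both pairs of arrays were well apart. Vha36-2 differed in the same direction by 1.40 (SE 0.49, adjusted p = 0.0688, limma) and was called in some of the alternatives. No general copy was called, and their changes ran from -0.96 (Vha100-1) to 0.46. Vha100-1 was called lower in the 23b combination without its replicate 2 (-1.21) and without replicate 1 of the pSC2 combination (-1.07). Against WT, 2 testis copies fell and 2 rose in the 23b combination, where 12.4% and 25.5% of all genes did. In the pSC2 combination 5 fell and 1 rose, where 16.8% and 32.2% of all genes did. Accessory gland genes moved the other way between the combinations, with 9 of 11 called lower in the 23b combination and 0 higher, and their part in this result was not tested. Genes listed for spermatids moved the same way as these pump genes, but 0 of 7 were called. Their median difference was 0.59, from 0.09 for ProtA to 0.91 for w-cup, against -0.10 over all genes, and their part in this result was not tested.

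**Figure D5:**
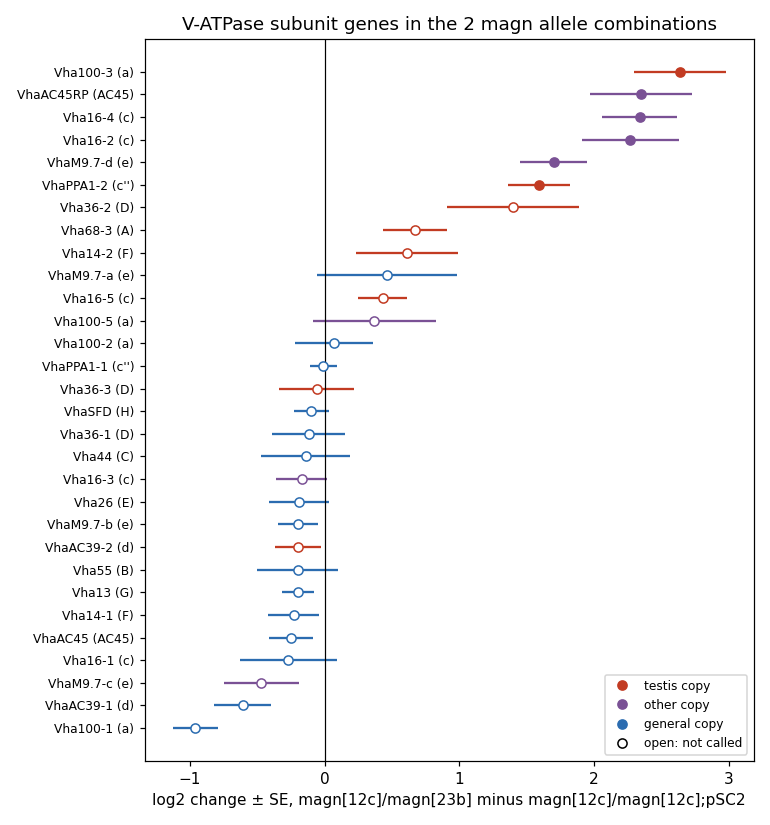
Log2 change (points, with SE from limma as bars) between magn[12c]/magn[23b] and magn[12c]/magn[12c];pSC2, 2 arrays each, for the 30 tested V-ATPase genes, coloured by class with open points for genes not called. The 6 filled points lie between 1.59 and 2.64, and no filled point lies below 0.

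Genes listed for germ cell stages moved with the testis copies in part. Of 7 genes listed for spermatids (dj, djl, ProtA, ProtB, Mst77F, w-cup and c-cup), 7 were lower in aly, 7 in sa and 1 in magn. Such a fall is not a count of spermatids, since fewer cells and less RNA per cell cannot be told apart. The WT arrays had a summed signal of 16.66 to 16.79, the aly arrays of 10.05 to 10.45 and the sa arrays of 13.81 to 14.54. In the 23b combination it was 16.54 to 16.65 and in the pSC2 combination 16.15 to 16.22. In aly dj, w-cup and c-cup were at or below 4 in all arrays. In magn the spermatid genes had a median change of -0.12, and the testis copies of the pump -1.26. The spermatogonial genes bam and zpg rose in aly by 4.85 and 3.53 and in sa by 3.56 and 2.52, and bam rose in magn by 2.19. In magn zpg changed by 0.82, and bgcn, also tested, changed by 0.82 in aly, -0.11 in sa and -0.38 in magn, none called. The gene vas was at or below 4 in every group. For the 4 such genes on the arrays, WT had a summed signal of 10.59 to 10.79, aly of 12.05 to 12.11, sa of 11.01 to 11.16 and magn of 10.17 to 10.85. Sheath muscle genes fell in 3 of 7 cases in aly and 2 of 7 in sa, and in magn 1 fell and 2 rose. Fat body genes fell in 4, 3 and 2 of 4 cases, and hemocyte genes rose in 3, 2 and 3 of 5 with 1 lower in each mutant. Accessory gland genes fell in 11, 1 and 0 of 11. Over all genes 24.8%, 21.6% and 14.6% were called lower and 45.6%, 40.9% and 29.3% higher in aly, sa and magn. The muscle falls and the hemocyte rises in sa were near these shares. The part of any of these cell types in the results was not tested.

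Genes that work with the pump formed a list of 14, of which 10 were tested. It held the accessory receptor gene ATP6AP2, the assembly factor Rbcn-3B, the chloride and proton exchangers ClC-b and ClC-c, the TLDc gene mtd, and RagC-D with Lamtor genes, through which the pump signals nutrient state to TOR. Of these 10, 8 rose in aly, 8 in sa and 6 in magn and none fell, where 45.6%, 40.9% and 29.3% of all genes rose. Their medians were 1.54, 1.61 and 1.04 against 0.77, 0.66 and 0.38 over all genes. With ribosomal protein genes as the centre of each array, an alternative added after seeing the data, 3 rose in aly (ClC-b, RagC-D and Lamtor1). In sa 1 rose (ClC-b) and in magn 0, and 1, 1 and 2 fell in aly, sa and magn. Of all genes 19.5%, 10.4% and 8.5% rose on that centre and 43.8%, 43.8% and 34.8% fell. ATP6AP2 rose from a mean of 11.84 in WT to 13.36 in aly (log2 change 1.51, SE 0.12, adjusted p = 4.89e-08, limma), and by 1.58 in sa and 1.22 in magn, or 0.07, 0.18 and 0.26 on that other centre, none called. ClC-b, the exchanger of lysosomes, rose by 3.26, 2.56 and 1.08, Lamtor1 by 3.20, 1.96 and 1.12 and RagC-D by 2.95, 1.84 and 1.2. Mitf, the fly homologue of a regulator of lysosomal genes, was at or below 4 in every group and was not tested.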

How the data were processed

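Each sample was hybridised to 1 Affymetrix Drosophila 2 array after 3′ IVT labelling. The authors deposited 1 log2 value per probe set and array, made with GCRMA per the submitters' processing notes; its version is not given in the sources used here. Probe sets were named through the platform annotation (13647 of 18952 pair with exactly 1 gene). A fit of 5 group means to all 13 arrays was made over 8719 genes with limma 3.58.1 in R 4.3.3 (lmFit, eBayes with an intensity trend, Benjamini-Hochberg over all genes within a contrast), and calls needed an adjusted p under 0.05 and at least 2-fold. Against a group with no array above 4, the fold is a bound taken from 4. On simulated arrays with 200 changed genes, 90% to 94% of changes of 1.5 log2 units and 97% to 99% of changes of 3 were found. False calls there were 4 to 8 a comparison. Far more genes were called in the data (in aly 24.8% lower and 45.6% higher), so these rates need not hold for them. Figures and permutation tests used Python 3.11.15 with matplotlib 3.10.9. The members, classes and lists were chosen with earlier results of these data known. Every gene with a Vha symbol is named; ATP6AP2, planned as a general copy under its old symbol VhaM8.9, is given with the partners. No scan dates were used here, so batches were not examined. Precision is limited by how many arrays each group has.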

Additional observations from a re-analysis of the deposited data

Results flagged for a closer look

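The design text counts the magn combinations as 1 genotype. A group of 6 V-ATPase genes differed between them in a direct test (limma, n = 2 and 2), which shares no WT array. The log2 difference, 23b minus pSC2 combination, was 2.64 for Vha100-3, 2.35 for VhaAC45RP, 2.34 for Vha16-4, 2.27 for Vha16-2, 1.70 for VhaM9.7-d and 1.59 for VhaPPA1-2, with adjusted p from 0.000159 to 0.00122. Over all genes 10.1% were called in this comparison. The summed accessory gland signal was 13.75 to 13.89 in the 23b and 16.67 to 16.69 in the pSC2 combination, and its part was not tested.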

How the results depend on the processing

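Counts of testis copies called lower kept within 1.5 times of 8, 6 and 5 under every alternative run. General copies called higher, 5, 9 and 2 in aly, sa and magn, were 0, 1 and 0 when ribosomal protein genes set each array's centre and 3, 4 and 0 centred on all tested genes. In magn they were 0 after quantile normalization and 1 to 3 when single arrays were left out. Without a fold minimum they were 10 in aly and 9 in magn, and 19 members in place of 7 differed between magn and sa. The copy difference of Vha14-2 (-4.84) was -5.37 to -4.31 with single arrays left out, and its p was then 0.05 or more in 9 of 13 cases. Centring on ribosomal protein genes turned the sign in aly of Vha55 (-1.42), Vha26 (-1.40), VhaAC39-1 (-0.23) and VhaAC45 (-0.30). In sa it turned Vha55 (-1.16), Vha26 (-0.22), Vha14-1 (-0.18), VhaSFD (-0.38), Vha16-1 (-1.30), Vha16-5 (-1.21), VhaAC39-1 (-0.14), VhaAC39-2 (-0.34) and VhaAC45 (-0.04), where a uniform shift is the alternative's own construction. The share of higher calls over all genes then moved from 43.9% to 58.7% for magn minus aly, from 49.6% to 74.2% for magn minus sa and from 78.7% to 89.4% between the magn combinations. For Vha16-1 the mean of both probe sets gave 0.03 in aly, and the second probe set alone gave 1.07 in aly, 0.34 for aly minus sa and -0.62 for magn minus aly. Same-numbered arrays showed no uniform correlation of their deviations from the group means (7 of 23 pairs above 0.1, 11 below 0, range -0.27 to 0.24). Differently numbered pairs were not compared and pairs share arrays, so this cannot show whether the replicate numbers of the titles pair the arrays. With these numbers as a replicate block the testis copies called lower were again 8, 6 and 5. None of the 210 tested changes of members gained or lost its call. Signals near the background limit the size of falls, which are bounds for Vha68-3, Vha36-2, Vha14-2 and VhaM9.7-d in aly. Vha36-3 read just above that level in aly and sa.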

Other observations

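Genes of the lysosome, the organelle that the pump acidifies, were also counted. Of 7 tested, 4 rose in aly, 3 in sa and 2 in magn and none fell, where 45.6%, 40.9% and 29.3% of all genes rose. Their medians were 1.04, 1.0 and 0.48 against 0.77, 0.66 and 0.38 over all genes. With ribosomal protein genes as the centre of each array none rose in any of the 3 mutants, and Lamp1, Npc1a and Npc2a fell in aly. Of all genes 19.5%, 10.4% and 8.5% rose on that centre and 43.8%, 43.8% and 34.8% fell. The efflux gene spin rose by 1.38, 1.74 and 1.21 and the protease gene CtsL1 by 1.04, 1.27 and 1.05 (-0.06, 0.33 and 0.25, and -0.41, -0.14 and 0.10, on that other centre), while the membrane glycoprotein gene Lamp1 changed by -0.63, 0.65 and 0.48, none called on the deposited scale. Lamp1 was lower in aly than in sa (-1.28) and than in magn (magn minus aly 1.11).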
